A study of Mus musculus with 5 samples.

Results

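Expression of 10 genes of endolysosomal proteolysis was described in mouse marrow progenitors on 5 Affymetrix whole-genome arrays. They were the cathepsins Ctsb, Ctsc, Ctsd, Ctsh, Ctsl, Ctss and Ctsz, the asparaginyl endopeptidase legumain (Lgmn), and the cathepsin inhibitors Ctla2a and Ctla2b. The members were all probe sets annotated with exactly 1 of these symbols, which gave 20 of 45037 probe sets, 18 for the 8 proteases and 2 for the Ctla2 genes. A further probe set that carries a member together with another symbol was left out by that rule. The genes were put together with the difference between the progenitors already known, so they were chosen by their deposited values on these same arrays, among which Lgmn, Ctsh, Ctss, Ctla2a and Ctla2b had stood out. Their differences are therefore given as a description, with a standard error and no test. The working name of the set speaks of cysteine cathepsins, but Ctsd is an aspartic protease, and it is described apart from the others.

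Common dendritic cell progenitors (CDP, 3 arrays) give rise to dendritic cells, and common myeloid progenitors (CMP, 2 arrays) lie further upstream and give rise to granulocytes, monocytes, erythroid cells and megakaryocytes. All cells were taken from the marrow of C57BL/6 mice labelled wild type, were lineage-negative, Sca-1-negative, CD34-positive, Flk2-positive and negative for CD16/32, and were sorted in a double sort. The CDP gate took CD115-positive cells of intermediate c-Kit, and the CMP gate took cells of high c-Kit without CD115 or CD11c. RNA of 10000 to 30000 cells per sample was amplified over 2 cycles. The sources used here give no age, sex or pooling of animals and leave unstated if each array had its own animals, so the spread between arrays may be technical. In bulk RNA of sorted cells, fewer cells that express a gene and less RNA per cell cannot be told apart.

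Cathepsins are made as inactive proenzymes, reach the endosomes and lysosomes, lose their propeptide in the acid lumen and degrade proteins there. In antigen-presenting cells they also trim antigens and the invariant chain that blocks the MHC class II groove, the work of Ctss above all, and Lgmn cuts after asparagine and converts several cathepsins to their mature chains. Ctla2a and Ctla2b encode small proteins that resemble the propeptide of Ctsl-like cathepsins and inhibit such enzymes. They were found in activated T cells and have no enzyme domain.

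The arrays were not alike in technical respects that bear on these genes. The 5′ beta-actin control lay at log2 6.54 on CDP 1 and 6.71 on CMP 1, and between 10.52 and 12.97 on the other 3 arrays. CDP 1 and CMP 1 are named the 5′-poor arrays here, and each difference is also given within either kind of array. This split follows beta-actin alone, and the 5′ Gapdh control places CDP 3 otherwise. It lay at 7.66 on CDP 1, 7.57 on CMP 1 and 7.40 on CDP 3, against 10.16 on CDP 2 and 10.97 on CMP 2. A split with CDP 3 among the 5′-poor arrays was not tried, so all results by kind of array hold for the beta-actin split only. Of 9 neutrophil markers with a probe set, 8 were detected (at or above log2 5) on CDP 2, with S100a8 at 12.52, and 0 on every other array. Of 10 macrophage markers, 1 or 2 were detected on the CDP arrays and 0 on the CMP arrays, and the complement genes C1qa and C1qc and the receptors Marco and Timd4 lay at 2.26, the lowest value of the table, on all 5 arrays. The summed macrophage markers came to log2 6.60 to 7.42 in CDP and 5.96 to 6.17 in CMP. Of 4 monocyte markers, 4 were detected on each CDP array and 3 on each CMP array, with sums of 13.99 to 14.24 in CDP and 12.17 to 12.19 in CMP. The summed dendritic progenitor markers came to 15.51 to 15.61 in CDP and 13.17 to 13.40 in CMP, the early progenitor markers to 10.80 to 11.36 in CDP and 12.24 to 13.26 in CMP, and the mast cell and basophil markers to 6.84 to 6.96 in CDP and 9.19 or more in CMP. Of 4 B cell markers, 1 was detected on each array. Markers of T and NK cells and of erythroid cells were detected on 0 arrays. The part of these markers in the results was not tested. Of the genes behind the sorting gate, Kit was at 7.54 ± 0.31 in CDP and 10.12 ± 0.11 in CMP (log2, mean ± SD; limma, adjusted p = 0.0318), and Itgax (CD11c) was at 7.22 ± 0.74 in CDP and 2.26 on both CMP arrays. The CD115 gene Csf1r averaged 13.02 ± 0.12 in CDP and was also detected on both CMP arrays, at 11.75 and 11.03, although CMP were sorted without CD115 at the surface. Its difference of 1.63 did not pass (limma, adjusted p = 0.097), nor did that of Flt3, which encodes Flk2, at 10.89 ± 0.13 in CDP and 9.97 ± 0.13 in CMP (adjusted p = 0.221).

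In CDP, Lgmn and Ctsh lay far above their CMP values, Ctss and Ctsb were 4.30-fold and 4.47-fold higher, and Ctsc was 1.43-fold higher. Ctsz, Ctsd and Ctsl overlapped between the populations. Ctla2a and Ctla2b ran the other way and were far lower in CDP. All values are log2 of the deposited expression values, on which a step of 1 is a 2-fold change, and group values are means ± SD over the 3 CDP arrays and the 2 CMP arrays. Values of different probe sets cannot be set against each other, so no order of level among the genes is given.

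**Figure D1:**
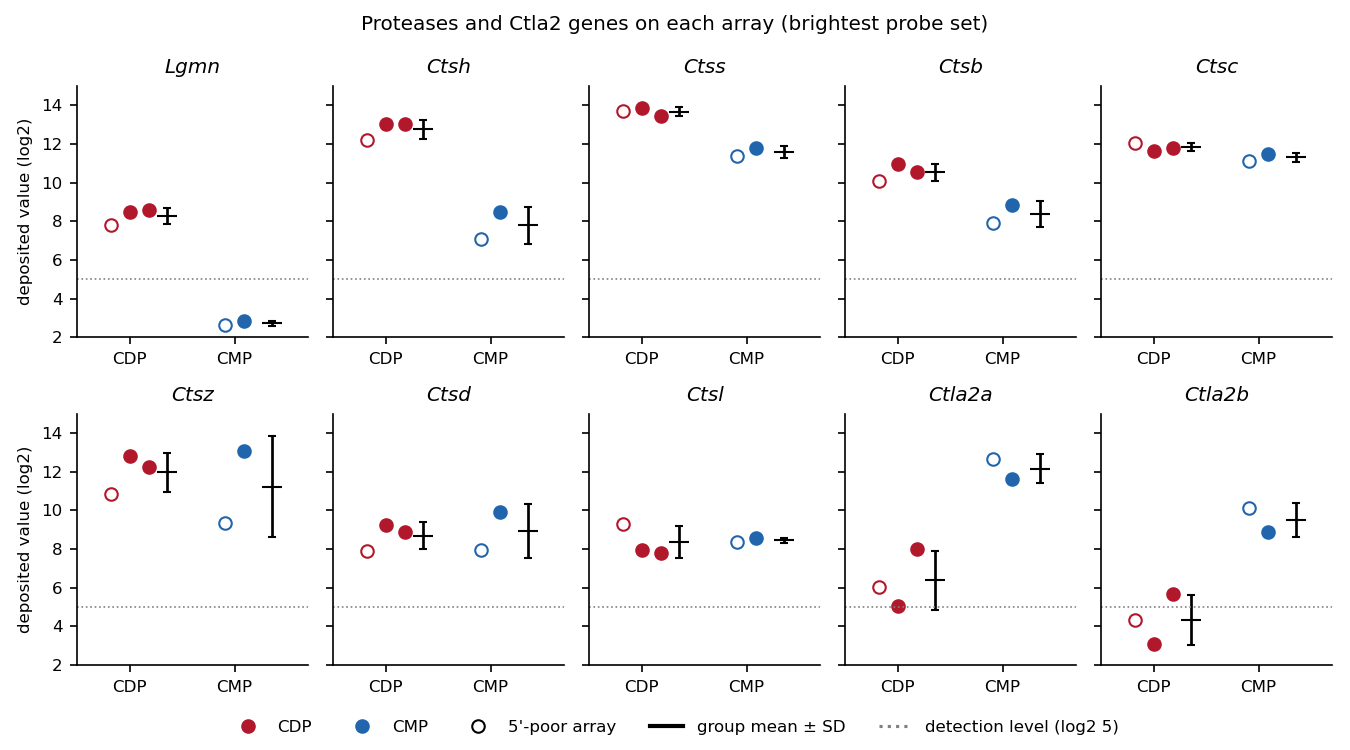
Deposited value (log2, vertical axis) of the 10 genes on each CDP and CMP array, at the brightest probe set of each, with the group mean ± SD beside the points and open points for the 5′-poor arrays. CDP lies wholly above CMP for Lgmn, Ctsh, Ctss, Ctsb and Ctsc and wholly below it for Ctla2a and Ctla2b, and the groups overlap for Ctsz, Ctsd and Ctsl.

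Lgmn read 7.81, 8.49 and 8.57 on CDP 1, CDP 2 and CDP 3, against 2.61 and 2.82 on CMP 1 and CMP 2. Every CDP array was above the detection level of log2 5 and neither CMP array reached it. CDP minus CMP was 5.57 ± 0.37 (SE of the fit over all probe sets). Since CMP was undetected, the fold can be given only as at least 9.77-fold higher in CDP, with values below 5 set to 5. The difference was 5.20 between the 5′-poor arrays and 5.71 between the other arrays. At its brightest probe set, each of the other 7 proteases was detected on both CMP arrays, so Lgmn alone among the 8 was undetected in one of the populations.

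The annotation holds a pair of start sites for Lgmn. The window at the downstream one (250 bases before to 50 after the start, RefSeq, GRCm38.p6, chr12:102439043-102439342, minus strand) is shown because it holds matches to the motifs searched, while the upstream window holds none. Capitals mark CACGTG, the E-box core that lysosomal regulators of the TFEB family bind, at -49, and a TATAAA match on the other strand at -37, counted from the start site.
Lgmn, downstream start: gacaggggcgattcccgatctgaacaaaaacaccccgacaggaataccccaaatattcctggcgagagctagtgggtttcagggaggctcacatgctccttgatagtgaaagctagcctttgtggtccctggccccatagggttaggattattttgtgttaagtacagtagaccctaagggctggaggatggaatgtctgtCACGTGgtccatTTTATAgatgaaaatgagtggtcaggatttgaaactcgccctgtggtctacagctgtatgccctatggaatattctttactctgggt

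Ctsh, an aminopeptidase of the lysosome, read 12.18, 13.04 and 13.05 on the CDP arrays, against 7.09 and 8.47 on the CMP arrays. All 5 arrays detected it, and the groups were far apart. CDP minus CMP was 4.98 ± 0.53 (SE), or 31.5-fold higher in CDP. The fold rests on the spread of the CMP arrays, since it was 19.5-fold without CMP 1 and 50.7-fold without CMP 2. A second probe set gave 11.01, 11.46 and 11.67 on the CDP arrays, against 6.14 and 6.83 on the CMP arrays, a difference of 4.89 ± 0.38. Both probe sets thus gave nearly the same difference, which for the brighter one was 5.09 between the 5′-poor arrays and 4.57 between the other arrays.

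Ctss, the protease that trims the invariant chain in dendritic cells, read 13.70, 13.89 and 13.45 on the CDP arrays, against 11.36 and 11.79 on the CMP arrays. It was thus bright in both populations, without overlap between them. CDP minus CMP was 2.11 ± 0.33 (SE), and the difference was 2.34 between the 5′-poor arrays and 1.88 between the other arrays. Its SD was 0.22 in CDP and 0.30 in CMP.

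The Ctss window (RefSeq, GRCm38.p6, chr3:95526536-95526835, plus strand) is shown because it is the only one of the 10 member windows with the interferon-stimulated response element core, a repeat that IRF factors bind, and IRF-8 is named in the title of the series. Capitals mark that motif, matched as GAAACCGAAA, at -21, GAGGAAGT (a motif of ETS factors such as PU.1) on the other strand at -2, and TATAAA on the other strand at -233. Binding was not measured here, and no window was available for Ctsb and Ctsh.
Ctss: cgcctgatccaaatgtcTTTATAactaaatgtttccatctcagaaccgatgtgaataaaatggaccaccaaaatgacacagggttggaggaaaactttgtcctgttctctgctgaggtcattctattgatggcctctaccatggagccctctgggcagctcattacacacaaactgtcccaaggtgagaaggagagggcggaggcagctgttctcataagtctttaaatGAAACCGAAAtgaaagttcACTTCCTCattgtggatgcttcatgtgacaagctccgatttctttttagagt

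Ctsb, an endopeptidase that also removes dipeptides from the carboxyl end, had 5 probe sets, which did not run alike. The brightest read 10.09, 10.98 and 10.54 on the CDP arrays, against 7.91 and 8.85 on the CMP arrays, a difference of 2.16 ± 0.45 (SE). The next 2 gave 1.09 ± 0.36 and 1.81 ± 0.33, also without overlap between the groups. On these 3, CDP was higher within either kind of array, by 0.75 to 2.18. Probe set 4 read 4.41, 8.06 and 5.27 on the CDP arrays, against 2.54 and 7.69 on the CMP arrays. It was high on CDP 2 and CMP 2 and low on CDP 1 and CMP 1, so its groups overlapped, with 0.80 ± 1.69 over all arrays, 1.87 between the 5′-poor arrays and -1.03 between the other arrays. Probe set 5 stayed below log2 5 on every array and failed the filter on low values.

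Ctsc, or dipeptidyl peptidase I, which activates the serine proteases of granules, read 12.05, 11.65 and 11.78 on the CDP arrays, against 11.14 and 11.47 on the CMP arrays. The CDP arrays lay just above the CMP arrays, with CDP minus CMP at 0.52 ± 0.32 (SE). The next probe set in brightness gave 0.13 ± 0.38 with overlap, and the dimmest 1.09 ± 0.40 with both CMP arrays below log2 5. The transcript was thus bright in both populations, and its difference at the brightest probe set was 0.91 between the 5′-poor arrays and 0.24 between the other arrays.

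**Figure D2:**
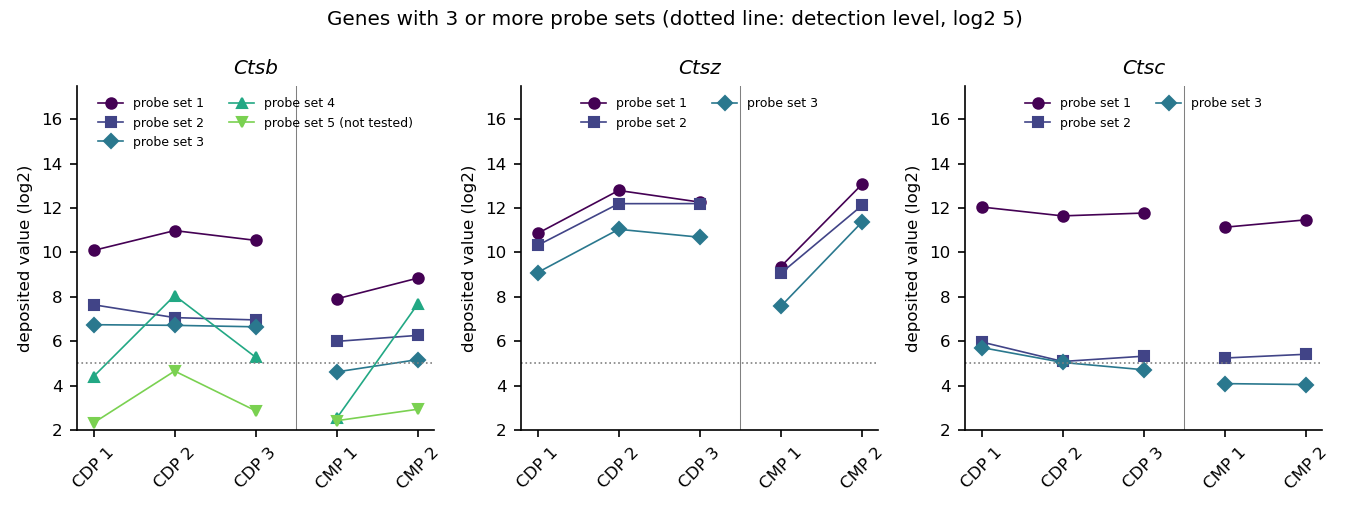
Deposited value (log2, vertical axis) on each array for every probe set of Ctsb (5), Ctsz (3) and Ctsc (3), with the dotted line at the detection level of log2 5. The 3 Ctsz probe sets run in parallel and are low on CDP 1 and CMP 1, while Ctsb probe set 4 does not follow the 3 brighter ones.

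Ctsz, a carboxypeptidase also called cathepsin X, read 10.85, 12.79 and 12.27 on the CDP arrays, against 9.37 and 13.07 on the CMP arrays. CMP held both the lowest and the highest array. The difference was 0.75 ± 1.14 (SE), and it was 1.49 between the 5′-poor arrays and -0.54 between the other arrays. Its other 2 probe sets gave 0.98 ± 1.02 and 0.80 ± 1.16. CMP 2 exceeded CMP 1 by 3.71 at the brightest probe set, and CMP 2 exceeded CMP 1 by more than 2 at 6.00% of all tested probe sets. The direction of the difference therefore rested on single arrays, at -1.10 without CMP 1 and 2.61 without CMP 2.

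Ctsl, an endopeptidase, read 9.30, 7.93 and 7.81 on the CDP arrays, against 8.34 and 8.54 on the CMP arrays. CDP held both extremes, with CDP 1 the highest of all 5 arrays, and CDP minus CMP was -0.10 ± 0.52 (SE). It was 0.96 between the 5′-poor arrays and -0.68 between the other arrays. A second Ctsl probe set stayed at 2.36 on all 5 arrays and failed the filter.

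Ctsd, the aspartic protease among them, read 7.92, 9.27 and 8.90 on the CDP arrays, against 7.93 and 9.93 on the CMP arrays. CDP 1 and CMP 1 were nearly equal and low, and CMP 2 was the highest. The difference was -0.23 ± 0.70 (SE), with -0.01 between the 5′-poor arrays and -0.85 between the other arrays. Neither Ctsl nor Ctsd was thus separated between the populations, and the SE of each difference was larger than the difference.

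The Ctsd window (RefSeq, GRCm38.p6, chr7:142387778-142388077, minus strand) is shown because it holds the longer E-box TCACGTGA and because its transcript was not separated between the populations. Capitals mark CACGTG at -245 and TCACGTGA at -99, which contains another CACGTG at -98.
Ctsd: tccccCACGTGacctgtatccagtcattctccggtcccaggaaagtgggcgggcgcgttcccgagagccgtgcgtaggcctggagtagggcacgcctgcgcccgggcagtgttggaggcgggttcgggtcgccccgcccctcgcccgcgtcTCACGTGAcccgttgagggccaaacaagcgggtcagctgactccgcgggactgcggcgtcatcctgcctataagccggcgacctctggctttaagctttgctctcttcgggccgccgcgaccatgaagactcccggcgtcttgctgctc

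Ctla2a read 6.04, 5.06 and 8.01 on the CDP arrays, against 12.68 and 11.64 on the CMP arrays. All 5 arrays detected it, every CDP array lay below both CMP arrays, and CDP 3 was the highest of the CDP arrays. CDP minus CMP was -5.78 ± 0.88 (SE), or 55.1-fold lower in CDP. The fold depended on the spread within CDP, and was 35.0-fold lower without CDP 2 and 97.4-fold lower without CDP 3. The difference was -6.64 between the 5′-poor arrays and -5.10 between the other arrays.

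Ctla2b read 4.31, 3.07 and 5.65 on the CDP arrays, against 10.13 and 8.89 on the CMP arrays. Only CDP 3 reached the detection level among the CDP arrays. CDP minus CMP was -5.17 ± 0.80 (SE), and CDP was at least 19.6-fold lower, a bound that became 12.8-fold without CMP 1 and 30.1-fold without CMP 2. The difference was -5.82 between the 5′-poor arrays and -4.53 between the other arrays. For both Ctla2 genes CDP 3 was the highest CDP array and CMP 1 was above CMP 2, while Ctla2b on CDP 1 and CDP 2 was undetected and gives no order there.

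The Ctla2 genes are near-copies, and their probe sets may not measure them apart. Their first start sites lie 39178 bases apart on chromosome 13, and their windows are shown to let this likeness be seen (RefSeq, GRCm38.p6, chr13:60936576-60936875 for Ctla2a and chr13:60897398-60897697 for Ctla2b, both minus strand). In a global alignment 255 of 278 aligned bases were identical (91.7%). Capitals mark TATAAA at -190 in the Ctla2a window, and the Ctla2b window holds none of the motifs searched.
Ctla2a, first start: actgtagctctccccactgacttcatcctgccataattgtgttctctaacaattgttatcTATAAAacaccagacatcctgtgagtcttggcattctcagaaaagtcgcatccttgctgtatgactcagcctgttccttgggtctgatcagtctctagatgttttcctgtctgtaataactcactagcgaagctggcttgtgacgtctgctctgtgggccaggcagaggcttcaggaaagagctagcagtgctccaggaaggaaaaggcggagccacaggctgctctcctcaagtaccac
Ctla2b: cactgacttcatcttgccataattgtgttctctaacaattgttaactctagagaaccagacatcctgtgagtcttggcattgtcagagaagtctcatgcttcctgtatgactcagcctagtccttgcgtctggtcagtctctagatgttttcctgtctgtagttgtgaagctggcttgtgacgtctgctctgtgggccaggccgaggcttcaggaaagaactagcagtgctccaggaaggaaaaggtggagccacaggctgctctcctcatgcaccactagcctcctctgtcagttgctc

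Seen together, 6 of the 8 proteases had a positive difference, 5 of the 8 lay above CMP without overlap and 3 overlapped, and both Ctla2 genes lay below CMP without overlap. Over all 8449 tested genes, 23.7% lay above and 10.8% below without overlap. In the limma fit over all 16552 tested probe sets, Lgmn, Ctsh and Ctss were among the calls higher in CDP at an adjusted p under 0.05, beside 1.67% of all tested genes, and Ctla2a and Ctla2b among those lower in CDP, beside 0.473% (2.14% in either direction). The genes were chosen with this contrast known, and nothing is read from those counts. The median difference was 1.43 for the 8 proteases and -5.48 for the 2 Ctla2 genes, against 0.12 over all tested probe sets, which is 1.31 and -5.59 relative to it. Within the 5′-poor arrays the medians were 1.84 and -6.23, and within the others 1.06 and -4.82. Of the 18 protease probe sets, 16 passed the filter on low values and 2 did not, and both Ctla2 probe sets passed. Of the 16, 9 lay above CMP without overlap, beside 21.2% of all tested probe sets, and 4 were called, beside 1.73% in either direction, from which again nothing is read.

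**Figure D3:**
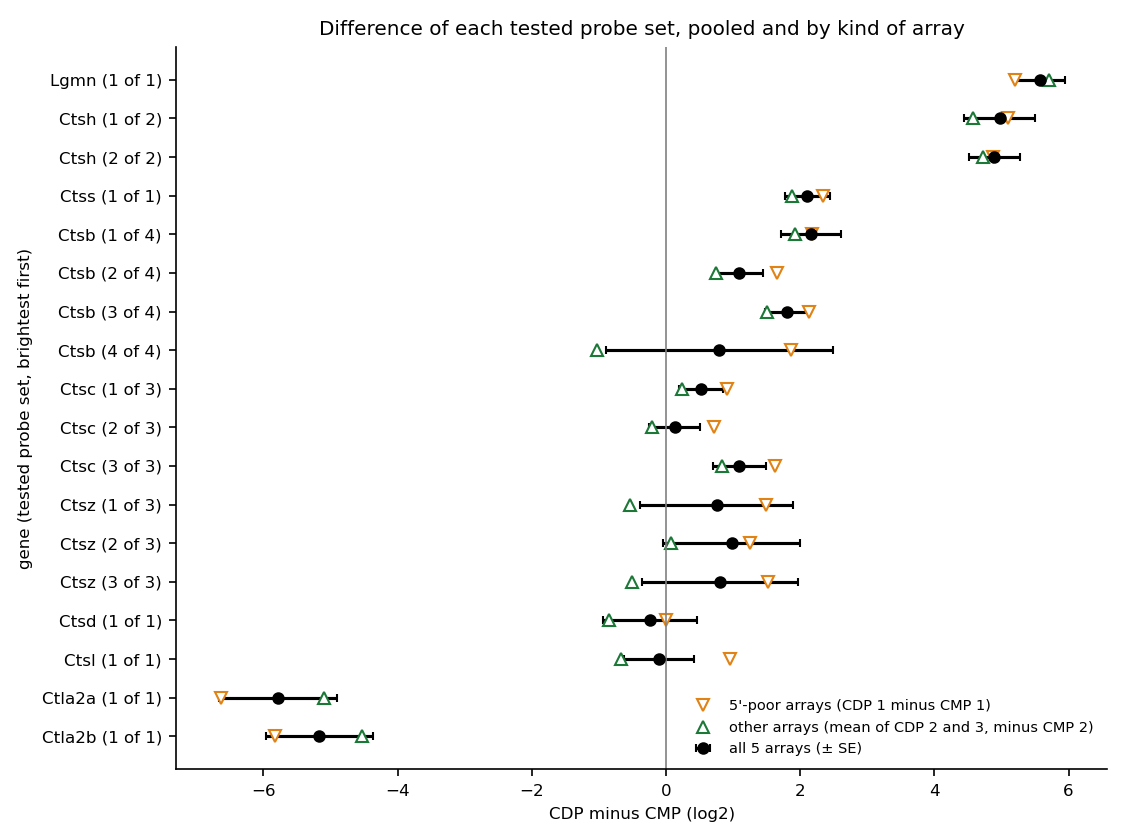
CDP minus CMP (log2, horizontal axis) of the 18 tested probe sets, over all arrays with its SE (black), between the 5′-poor arrays (CDP 1 minus CMP 1, downward triangles) and between the other arrays (mean of CDP 2 and CDP 3 minus CMP 2, upward triangles). Lgmn, Ctsh, Ctss and the Ctla2 genes keep their side of 0 in both kinds of array. Opposite signs are seen for Ctsl, for the brightest and the dimmest probe set of Ctsz, for the dimmest of Ctsb and for the middle one of Ctsc.

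Of the 8 proteases, Lgmn, Ctsh, Ctss, Ctsb and Ctsc were above 0 in both kinds of array at the brightest probe set, Ctsz and Ctsl had opposite signs, and Ctsd was at -0.01 and -0.85. Over all tested probe sets, rather than genes, opposite signs were found for 35.0%. Among the members' further tested probe sets, the dimmest of Ctsb, the dimmest of Ctsz and the middle one of Ctsc (0.72 and -0.21) had opposite signs as well. With the kind of array as a block, the differences were 5.49 ± 0.27 for Lgmn, 4.80 ± 0.27 for Ctsh, 2.08 ± 0.29 for Ctss and 2.03 ± 0.28 for Ctsb. They were -5.76 ± 0.86 for Ctla2a and -5.08 ± 0.76 for Ctla2b. Beside the SE without the block, that with it was about the same for the Ctla2 genes (0.88 and 0.80 without) and smaller for Ctsh (0.53 without).

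The profile of each gene over the 5 arrays was set against that of all other tested genes, as the root mean square distance after each profile was centred on its own mean. This is a description over 5 arrays that all genes share. Values below log2 5 entered it as deposited, so where a gene was undetected in a population the distance also reflects where its undetected values lie. On both CMP arrays this held for Lgmn, Fn1, Itgax and S100a4. It also held there for Ptpro, Tlr1 and Mycl, which were close to Ctsh, and for Marchf3 and Srgap3, which were close to Ctss. Ctsh and Ctss themselves were detected on both CMP arrays. Clec10a was below log2 5 on CMP 1, and Marchf3 on CDP 3 as well. Closest to Lgmn were Fn1, which encodes fibronectin (0.17 log2), the ribonuclease gene Rnase6 (0.35), Itgax (0.37) and the calcium-binding S100a4 (0.42), and Ctsh was the seventh closest (0.48). Closest to Ctsh were the phosphatase gene Ptpro (0.40), the pattern receptor gene Tlr1 (0.43), the lectin gene Clec10a (0.45) and the Myc family member Mycl (0.45). Ctss was closest to Kif23, a mitotic kinesin (0.07), Unc119b (0.11), the ubiquitin ligase gene Marchf3 (0.11) and Srgap3 (0.11). Ctla2a was closest to Ctla2b (0.37), followed by the transferrin receptor gene Tfr2 (0.50), Myct1 (0.53) and Angpt1, the ligand of Tie2 (0.79). In all 5 genes of that last group CMP 1 was above CMP 2, an order that the choice of genes close to Ctla2a favours. Myct1 was below log2 5 on all 3 CDP arrays, Ctla2b and Tfr2 on CDP 1 and CDP 2, and Angpt1 on CDP 2.

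**Figure D4:**
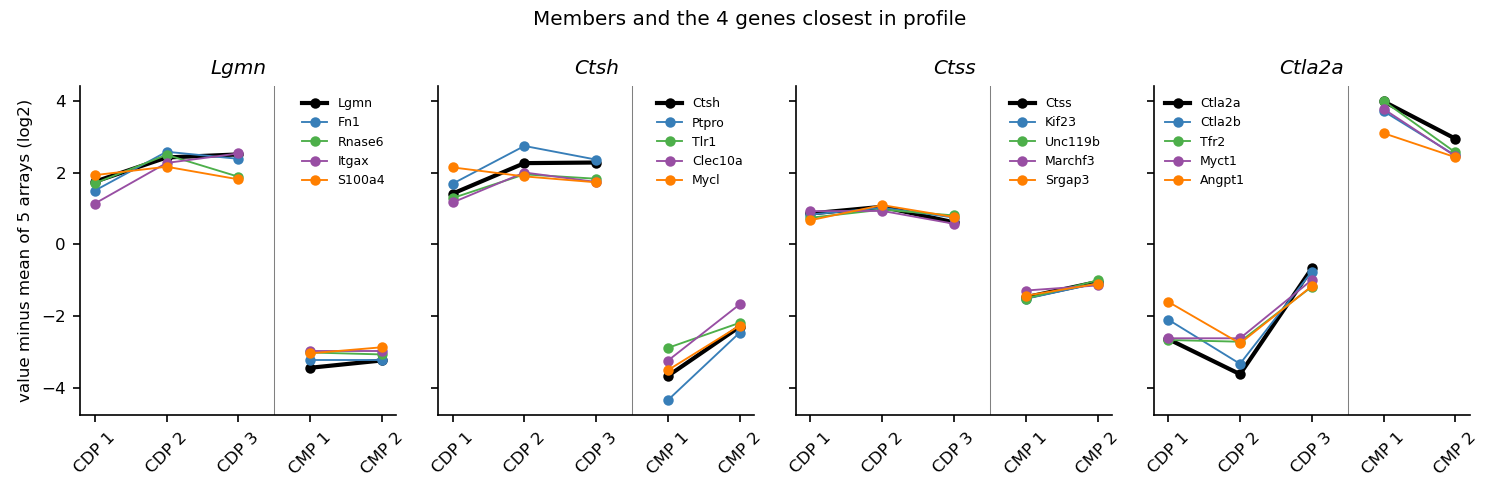
Profiles over the 5 arrays (value minus the gene's own mean, log2, vertical axis) of Lgmn, Ctsh, Ctss and Ctla2a in black, each with the 4 tested genes closest to it in colour. Ctla2a, Ctla2b, Tfr2, Myct1 and Angpt1 are all higher on CMP 1 than on CMP 2, and each of the 5 but Ctla2a has CDP values below the detection level. The choice by closeness to Ctla2a favours this order of the CMP arrays.

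The promoter table holds windows of 8 member genes (10 windows, since Lgmn and Ctla2a have a pair each, and the pair of Ctla2a overlaps). These were searched on both strands. Ctsb and Ctsh have no window there and were not searched. CACGTG occurred in 3 of the 10 windows (Ctsd, Ctsl and the downstream one of Lgmn), against 7.15% of all 32851 windows in the table. TCACGTGA, which contains it, occurred in 1 window, that of Ctsd, against 0.974% of all. GAGGAAGT occurred in 2 (Ctsc and Ctss), against 3.2%, the interferon-stimulated response element core in 1 (Ctss), against 3.44%, and the ETS-IRF composite element in 0, against 2.72%. TATAAA occurred in 4 windows (both of Ctla2a, Ctss and the downstream one of Lgmn), against 13.6%. The overlapping Ctla2a windows hold the same site, at -190 from the first start and -249 from the other, so it is counted in each. Genes with the E-box were Lgmn (downstream window only), at least 9.77-fold higher in CDP, and Ctsd and Ctsl, which overlapped between the populations. Whether the motif bears on these differences was not tested.

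Other genes of the pathway, from 9 lists, gave 61 distinct genes that passed the filter on low values, none of them a member. In the limma fit 0 of the 61 passed an adjusted p of 0.05, beside 1.67% of all tested genes called higher and 0.473% called lower. At an unadjusted p under 0.05 there were 15 higher and 2 lower, and 51 of the 61 differences were positive, beside 60.6% over all tested genes. With the kind of array as a block, 11 were called higher in CDP and 1 lower (limma, adjusted p under 0.05), beside 7.1% and 2.66% of all tested genes and 8.69% of all tested probe sets in either direction. The calls on these lists therefore depended on whether the kind of array entered the fit.

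**Figure D5:**
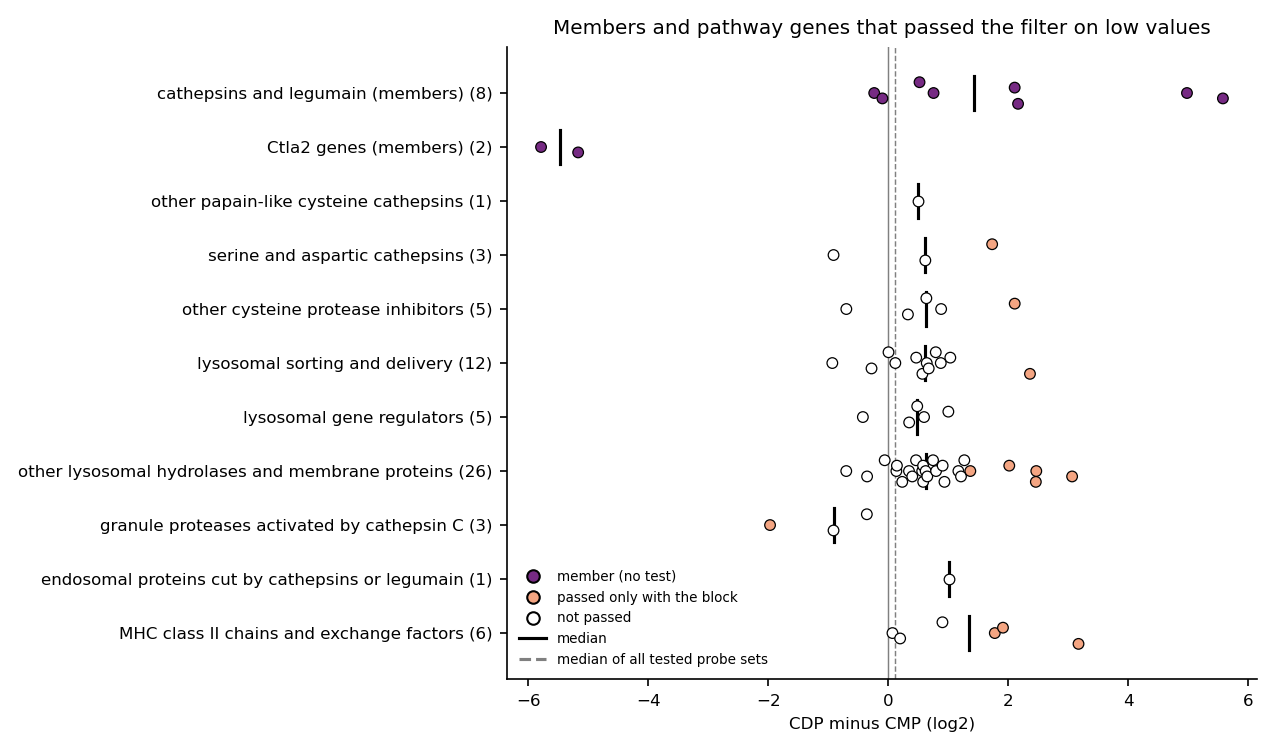
CDP minus CMP (log2, horizontal axis) of the members (purple) and of the genes of the 9 pathway lists that passed the filter, with the number of genes in brackets, a bar at each list's median and a dashed line at the median of all tested probe sets (0.12). Orange genes reach an adjusted p under 0.05 only with the kind of array as a block, and none does without it.

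Among related proteases, 11 of the 12 other papain-like cathepsins, such as Ctsk of osteoclasts, Ctsw of lymphocytes and the placental Ctsj and Ctsm, stayed close to the table's lowest value and failed the filter. Ctso alone passed it, with a difference of 0.49 ± 0.32 (SE; limma, adjusted p = 0.534). Of the 3 serine and aspartic cathepsins, Ctsa, which protects lysosomal glycosidases, was at 11.25 ± 0.91 in CDP and 9.52 ± 1.13 in CMP (limma, adjusted p = 0.302, and 0.0231 with the kind of array as a block, called the block from here on). Ctsg, a granule protease, was at 13.48 ± 0.21 in CDP and 14.39 ± 0.07 in CMP (adjusted p = 0.237). None of the 3 passed in the fit without a block.

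Among other inhibitors of cysteine proteases, 5 of 11 with a probe set passed the filter, with a median difference of 0.63. Cst3, which encodes cystatin C, was at 12.47 ± 0.84 in CDP and 10.36 ± 1.18 in CMP, with CDP higher by 2.11 ± 0.68 (SE; limma, adjusted p = 0.216, and 0.0153 with the block). Cstb, which encodes the cytosolic cystatin B, was at 10.68 ± 0.21 in CDP and 9.80 ± 0.98 in CMP (adjusted p = 0.440). The stefin A family genes Csta1, Stfa2l1 and Stfa3 lay below log2 3 on every array. The 2 cystatins named thus had positive differences where the Ctla2 genes had negative ones. Neither passed without the block, and with it Cst3 alone did (Cstb, limma, adjusted p = 0.115). Of the 5 tested inhibitors, 4 differences were positive, that of Cst7 being 0.33 ± 0.82 (SE). Serpinb1a had a negative one of -0.70 ± 0.45. Cst7 and Serpinb1a were named after their values were seen.

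In the lists of lysosomal sorting, regulation and content, 12, 5 and 26 genes were tested, with median differences of 0.60, 0.48 and 0.64. Sorl1, a sorting receptor, was at 10.99 ± 0.15 in CDP and 8.63 ± 0.76 in CMP (limma, adjusted p = 0.0558, and 0.0152 with the block), and Vps26a, a retromer subunit, had a difference of 1.03 ± 0.36 (adjusted p = 0.241). Mitf and Mcoln1, a regulator and a calcium channel of lysosomes, had differences of 1.00 ± 0.45 and 0.60 ± 0.50 (adjusted p = 0.354 and 0.635). Ifi30, a thiol reductase that prepares antigens for the cathepsins, was at 11.24 ± 0.97 in CDP and 8.17 ± 0.59 in CMP (adjusted p = 0.0831, and 0.00976 with the block). Psap, the precursor of the saposins, had a difference of 2.47 ± 0.79 (adjusted p = 0.212, and 0.0124 with the block). Also called with the block, and named after their values were seen, were Scpep1, Dpp7 and Lamp1, with differences of 2.46 ± 0.44, 2.02 ± 0.35 and 1.37 ± 0.33 without it. Of the 26 lysosomal content genes tested, 5 were called with the block, each higher in CDP. Over all tested genes, 7.1% were called higher and 2.66% lower with the block.

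Among proteins that cathepsins or legumain act on, 3 of the 15 granule proteases activated by Ctsc with a probe set passed the filter. All 3 differences were negative (median -0.91), where 60.6% of all tested genes had positive ones. That of Prtn3, named with its values known, was -0.36 ± 0.32 with overlap between the groups (SE; limma, adjusted p = 0.664). Mcpt8, a basophil protease, was at 5.87 ± 0.15 in CDP and 7.84 ± 0.45 in CMP (limma, adjusted p = 0.0558, and 0.0118 with the block), and Ctsg is given above. The endosomal substrates Cd74, the invariant chain, and Tlr3, Tlr7 and Tlr9 stayed below log2 5 on all 5 arrays, and Pycard, an inflammasome adaptor, had a difference of 1.00 ± 0.54 (adjusted p = 0.442). Class II chains and exchange factors were a separate list, not one of substrates. Of its 6 tested genes all 6 differences were positive (median 1.34), beside 60.6% over all tested genes. Those of H2-Ab1 and H2-Ob were smaller than their SE, at 0.20 ± 0.59 and 0.07 ± 0.30. Between the 5′-poor arrays H2-Ab1, H2-Oa and H2-Ob were negative (-0.205, -0.151 and -0.025). Between the other arrays all 6 were positive. H2-Aa was at 8.22 ± 0.68 in CDP and 5.05 ± 1.21 in CMP (adjusted p = 0.0818, and 0.0295 with the block), and H2-DMa, a peptide exchange factor, at 9.57 ± 1.57 in CDP and 7.66 ± 1.10 in CMP (adjusted p = 0.406, and 0.0452 with the block). H2-DMb2 was called with the block as well (adjusted p = 0.0338, and 0.282 without it). It was named with its values known, as were H2-Ab1, H2-Oa and H2-Ob.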

How the data were processed

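The deposited values are log2 expression per probe set on 5 Affymetrix arrays, for 45037 probe sets beside 64 controls. The authors made them with GCRMA, per the submitters' processing notes. Its version, the genome build and whether all arrays were processed jointly are not given in the sources used here. Titles gave the groups, and that of CDP 3 has the prefix CM in place of BM. Array number limits the precision.

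The deposited values were not normalized again. Gene names are those of the platform annotation (34945 with 1 symbol, 932 with several, 9160 with none), and 0 symbols changed against the RefSeq gene table (GRCm38.p6). A probe set was tested when at least 2 arrays reached log2 5, which left 16552. CDP against CMP was fitted with limma 3.58.1 (R 4.3.3, lmFit and eBayes, 2-sided), with Benjamini-Hochberg adjustment over all of them. Genes with several tested probe sets are represented by the brightest. The procedure was tested on simulated data with independent noise on each array. Such data lack the deviations that arrays of the same number share here, so the steadiness of the calls cannot be read from them.

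The members, the pathway and marker lists and the settings were chosen with earlier results of these data known. Named outside the members were, per list, up to 4 called genes and, where fewer than 2 were called, the 2 largest differences, with the genes of the sorting gate and the 4 closest profiles of Lgmn, Ctsh, Ctss and Ctla2a. Promoter windows are RefSeq's (GRCm38.p6), with 8 of the 10 genes matched and none for Ctsb and Ctsh. Alternatives were other scalings, filters and variance models, the replicate number or the kind of array as a block, fewer or averaged probe sets, and leaving out each array.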

Additional observations from a re-analysis of the deposited data

How the results depend on the processing

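Lgmn, Ctsh, Ctss, Ctsb, Ctsc, Ctla2a and Ctla2b kept the sign of their difference under all 17 or 18 alternatives that gave a value, with ranges of 5.43 to 5.81 for Lgmn, 4.29 to 5.66 for Ctsh, 1.89 to 2.32 for Ctss, 1.46 to 2.63 for Ctsb, 0.35 to 0.69 for Ctsc, -6.61 to -5.13 for Ctla2a and -5.82 to -4.53 for Ctla2b. Ctsl, Ctsd and Ctsz turned. Ctsl (-0.10) became 0.17 with the replicate block, 0.023 with the kind of array as a block, and 0.11, 0.17 and 0.0033 without CDP 2, CDP 3 and CMP 2. Ctsd (-0.23) became 0.049 with array weights and 0.15 and 0.77 without CDP 1 and CMP 2. Ctsz (0.75) became -1.10 without CMP 1. With 1 array left out, Ctsl ran from -0.57 to 0.17, Ctsd from -1.24 to 0.77 and Ctsz from -1.10 to 2.61. The median of the proteases (1.43) ran from 1.02 to 2.46 when 1 array was left out, the highest without CMP 2, and was 2.16 without the probe sets whose IDs end in _a, _s or _x, where Ctla2a, Ctsd, Ctsl and Ctsz have no tested one left. Leaving out only the _s and _x probe sets, a setting chosen after seeing the data, left it at 1.43. The median of the Ctla2 genes (-5.48) ran from -6.21 to -4.83 when 1 array was left out. The cause of these shifts was not tested.

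The count of 287 called probe sets became 55 with no filter, 608 with the replicate block and 1438 with the kind of array as a block, and ran from 0 to 44 when 1 array was left out, with 44 without CDP 1 and 0 without any other. The count of called pathway genes (0) became 1 with quantile normalization, median scaling or trended variance, 2 with array weights or without the _a, _s and _x probe sets, 4 with probe sets averaged per gene, 6 with the replicate block and 12 with the kind of array as a block, and was 0 without each array. Quantile normalization gave a median over all tested probe sets of 0.0026, against 0.12 as deposited. Arrays of the same number deviated together from their group means (r = 0.606 for number 1 and 0.579 for number 2, across probe sets, where the CMP deviations of a pair mirror each other). The arrays of number 1 are also the 5′-poor ones by beta-actin, so a shared number and the kind of array cannot be told apart in these correlations. The labels tie no number to an animal or day, and the pairing was not used. Values below log2 5 were taken as undetected, which limits folds of Lgmn and Ctla2b to bounds.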
